A study of Arabidopsis thaliana with 248 samples.

Results

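The effect of *ldl2* on mRNA was examined in *Arabidopsis* seedlings that already lacked the 3 histone methyltransferases SUVH4, SUVH5, and SUVH6. The comparison was defined by genotype, *suvh4/5/6 ldl2* against *suvh4/5/6*, and it took 6 of the 27 libraries of this mRNA-seq experiment, out of 248 samples in the whole series. All 33602 genes of the count table were tested and were then read by annotation class. Both genotypes are in the Col-0 strain, both carry the *suvh4/5/6* triple mutation, and they differ by the T-DNA allele *ldl2-1*. WT, here Col-0, gives the level of each gene where H3K9 methylation is intact. RNA came from 2-week-old whole seedlings, with 3 biological replicates per genotype. Some values are also given for the *ldl2* effect in *cmt2/3*, the double mutant of the non-CG DNA methyltransferases CMT2 and CMT3, and in the F1 plants of the reciprocal crosses, sxc (*suvh4/5/6* mother) and cxs (*cmt2/3* mother).

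SUVH4, SUVH5, and SUVH6 methylate H3K9, and the resulting H3K9me2 and the non-CG DNA methylation laid down by chromomethylases reinforce each other over transposable elements (TEs). LDL2 is a histone demethylase of the LSD1 family that removes H3K4me1, a mark of transcribed gene bodies, where H3K9me2 accumulates. In *suvh4/5/6* the H3K9me2 of TEs is lost and many TE genes, the genes encoded by TEs, are transcribed. The comparison therefore asks what *ldl2* changes in the mRNA when this H3K9me2 is already gone.

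With *ldl2*, 7 TE genes rose and 1 protein-coding gene fell, and no other gene passed an adjusted *P* of 0.05 (edgeR's quasi-likelihood test, Benjamini-Hochberg adjustment over all genes). These 8 calls were 0.0238% of the 33602 genes, with 0.0208% higher and 0.00298% lower. The share called was 0.179% among 3903 TE genes and 0.00365% among 27416 protein-coding genes. The TE genes that rose were AT1G35650, AT3G26530, AT5G44890, AT2G29240, AT1G35647, AT4G06628, and AT1G44880, each between 10.9- and 20.0-fold higher in *suvh4/5/6 ldl2*. By nucleotide sequence they fell into 3 families (at least 90% identity over at least 1000 bp). The gene that fell was AT3G05160, annotated as a sugar transporter of the major facilitator superfamily, at 4.90-fold lower. AT3G05160, AT1G35650, and AT1G35647 were called whichever of the 6 libraries was left out, and the calls of the other 5 genes depended on single libraries, as given with each gene.

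The largest family is shown first by sequence, because it decides how many separate loci the calls stand for. AT3G26530, AT5G44890, AT2G29240, and a gene just outside the threshold, AT1G21020, each lie in a copy of the same 12268-bp element, and another copy holds AT1G08740. DNA transposons duplicate a short stretch of their target when they insert, so that each insertion is bounded by a repeat of its own. Each of the 5 copies was flanked by a perfect 9-bp duplication, and the 5 duplications differed. The left ends follow, read 5′ to 3′ on the strand of the element from the TAIR10.1 reference, with the duplication in capitals and the first 40 bases of the element after it.
AT3G26530 copy (chr3:9736112-9736170, minus strand): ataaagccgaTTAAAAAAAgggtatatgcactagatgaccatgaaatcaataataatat
AT5G44890 copy (chr5:18131696-18131754, minus strand): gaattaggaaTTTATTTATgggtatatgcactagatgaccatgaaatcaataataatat
AT2G29240 copy (chr2:12578383-12578441, minus strand): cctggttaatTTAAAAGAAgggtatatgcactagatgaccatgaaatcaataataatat
AT1G21020 copy (chr1:7352911-7352969, plus strand): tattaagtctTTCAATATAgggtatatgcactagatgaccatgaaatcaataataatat
AT1G08740 copy (chr1:2800655-2800713, minus strand): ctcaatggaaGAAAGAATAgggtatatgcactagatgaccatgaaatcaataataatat

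The right ends of a pair of copies show the same duplication again, in capitals, after the last 40 bases of the element.
AT3G26530 copy (chr3:9723865-9723923, minus strand): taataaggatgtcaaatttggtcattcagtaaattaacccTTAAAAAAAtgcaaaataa
AT5G44890 copy (chr5:18119449-18119507, minus strand): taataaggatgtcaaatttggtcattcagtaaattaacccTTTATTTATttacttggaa

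The copies were at least 99.96% identical to the AT3G26530 copy over their whole length. The called gene lies at positions 611 to 5052 of the element. Over its 4442 bp, AT5G44890 did not differ from AT3G26530, AT2G29240 differed by G2486T, and AT1G21020 differed by C2038T, C2039T, A2533G, and C4397T (AT3G26530 base first, positions counted from the 5′ end of the gene). Translated, the gene matched *Arabidopsis* proteins annotated as a DUF1985 protein and as Ulp1 proteases, the family of cysteine proteases that process the ubiquitin-like protein SUMO.

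AT1G35650 belongs to the same family, but to a diverged copy on chromosome 1 (13172923 to 13192359), whose pieces were 95.3 to 96.7% identical to the intact element. A stretch at the start of the gene is shown beside that of AT3G26530, with the differing bases in capitals.
AT1G35650 (chr1:13191645-13191744, minus strand): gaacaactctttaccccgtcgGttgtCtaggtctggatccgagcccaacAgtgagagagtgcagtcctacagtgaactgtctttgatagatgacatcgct
AT3G26530 (chr3:9735437-9735536, minus strand): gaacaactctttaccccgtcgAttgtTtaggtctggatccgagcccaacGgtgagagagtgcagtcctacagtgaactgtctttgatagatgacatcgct

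This chromosome 1 copy is interrupted by a 6666-bp insert (chr1:13180612-13187277) that holds AT1G35647, the called gene of the second family. The insert begins and ends with an exact 81-bp inverted repeat and is flanked by a 5-bp duplication. Its ends are shown on the minus strand, with the duplication in capitals.
insert, left end (chr1:13187248-13187292): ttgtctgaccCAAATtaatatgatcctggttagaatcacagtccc
insert, right end (chr1:13180597-13180641): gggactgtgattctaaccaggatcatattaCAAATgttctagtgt

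AT1G35647 and AT4G06628 were 99.1% identical over 2872 bp. The first 100 bases of AT1G35647 and the matching bases of AT4G06628 differ at the capital.
AT1G35647 (chr1:13186137-13186236, minus strand): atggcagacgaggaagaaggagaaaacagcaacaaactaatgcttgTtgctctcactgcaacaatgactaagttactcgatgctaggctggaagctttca
AT4G06628 (chr4:3752802-3752901, minus strand): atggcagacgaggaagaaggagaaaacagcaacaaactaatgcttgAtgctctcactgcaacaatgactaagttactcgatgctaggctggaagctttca

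The third family had a single called member, AT1G44880, whose translation also matched DUF1985 proteins. Its first bases and those of its relatives AT4G03970 and AT3G42530 are shown with the positions that differ among them in capitals.
AT1G44880 (chr1:16959943-16960042, minus strand): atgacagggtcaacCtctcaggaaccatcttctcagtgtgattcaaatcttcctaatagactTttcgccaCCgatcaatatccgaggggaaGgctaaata
AT4G03970 (chr4:1892890-1892989, plus strand): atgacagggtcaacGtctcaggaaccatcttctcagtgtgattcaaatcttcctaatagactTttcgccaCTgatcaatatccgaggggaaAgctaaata
AT3G42530 (chr3:14639684-14639783, minus strand): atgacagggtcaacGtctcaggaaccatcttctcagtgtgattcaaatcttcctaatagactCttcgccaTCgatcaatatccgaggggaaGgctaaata

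Counts per library ranged from 11066814 to 11397223 in *suvh4/5/6 ldl2*, against 10983243 to 12537180 in *suvh4/5/6*. Leaf photosynthesis markers summed to 71278 to 82166 CPM (counts scaled to the size of the library) in *suvh4/5/6 ldl2*, against 61989 to 83933 CPM in *suvh4/5/6*, whereas 9 of 10 seed markers and 5 of 6 flower markers were under 1 CPM. Root markers summed to 60.2 to 74.3 CPM in *suvh4/5/6 ldl2* and 70.8 to 84.7 CPM in *suvh4/5/6*, and 10 of the 14 were under 1 CPM. Fewer cells of a type and less RNA per cell cannot be told apart in such samples.

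The mutated genes were read next. *LDL2* (AT3G13682, chromosome 3, 4479193 to 4481509) had 31, 38, and 44 counts in *suvh4/5/6 ldl2*, 43, 57, and 42 in *suvh4/5/6*, and 53, 42, and 51 in WT. The *suvh4/5/6 ldl2* libraries overlapped the others (log2 fold change −0.21, adjusted *P* = 1, edgeR), so the count of this gene does not check the label of a T-DNA allele that can leave transcript on either side of the insertion. *SUVH4* had 41, 36, and 36 counts in *suvh4/5/6 ldl2* and 45, 51, and 37 in *suvh4/5/6*, against 145, 146, and 175 in WT. *SUVH5* had 10, 19, and 13 counts in *suvh4/5/6 ldl2* and 23, 6, and 13 in *suvh4/5/6*, against 49, 50, and 70 in WT. *SUVH4* and *SUVH5* were thus low in all 6 mutant libraries. *SUVH6* had 167, 343, and 133 counts in *suvh4/5/6 ldl2*, 254, 436, and 209 in *suvh4/5/6*, and 233, 182, and 268 in WT, with overlap among all 3 genotypes. Within each same-numbered pair it was lower in *suvh4/5/6 ldl2*, at 15.1, 30.4, and 12.2 CPM, against 20.4, 33.8, and 19.7 CPM in *suvh4/5/6*, and it did not pass the test with the replicate number as a block (log2 fold change −0.37, adjusted *P* = 1, edgeR). The other genes of the LSD1 family, *LDL1*, *LDL3*, and *FLD*, did not pass the test.

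AT1G35650 had 190, 185, and 203 counts in *suvh4/5/6 ldl2*, against 11, 12, and 8 in *suvh4/5/6*, and none in WT. All *suvh4/5/6 ldl2* libraries were far above all libraries without it, and this was the largest rise among the called genes (4.32 ± 0.46, SE, as log2 fold change, adjusted *P* = 1.8e-04, edgeR). Against WT, its level in *suvh4/5/6 ldl2* was at least 197-fold higher, with 3 counts over the WT libraries taken as the floor, which covers counting error only. AT1G35647, in the insert, had 367, 475, and 410 counts in *suvh4/5/6 ldl2*, against 25, 26, and 38 in *suvh4/5/6*, and none in WT (log2 fold change 3.90 ± 0.45, SE, adjusted *P* = 9.9e-04, edgeR). These neighbouring rows rose together. On one side of the pair, AT1G35645 had at most 2 counts in any of the 6 libraries, so a change was not detectable there. On the other side, AT1G35660 had 180, 163, and 172 counts in *suvh4/5/6 ldl2* and 192, 160, and 152 in *suvh4/5/6* (log2 fold change 0.14).

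The genes in the intact element had almost the same counts as each other. AT3G26530 had 319, 378, and 362 counts in *suvh4/5/6 ldl2*, against 32, 44, and 29 in *suvh4/5/6*, and 1, 0, and 1 in WT (log2 fold change 3.45 ± 0.50, SE, adjusted *P* = 0.0032, edgeR). AT5G44890, its identical copy, had the same 319, 378, and 362 counts in *suvh4/5/6 ldl2*, against 28, 44, and 28 in *suvh4/5/6* (3.52 ± 0.48, SE, adjusted *P* = 0.0021, edgeR). Without *suvh4/5/6* replicate 1 both missed the threshold, with adjusted *P* (edgeR) of 0.074 for AT3G26530 and 0.059 for AT5G44890, and AT3G26530 also missed it without *suvh4/5/6* replicate 3 (0.054). Since no base distinguishes these genes, a read from one cannot be assigned to it rather than to the other, and the rows are not separate observations. Counting of uniquely mapped reads alone would give such copies few counts, and how reads with several matches were counted is not settled by the sources used here, so the counts of these and other repeated TE genes may include reads from their copies. AT2G29240, with 1 differing base, had 96.0 to 97.0% of the AT3G26530 count in the *suvh4/5/6 ldl2* libraries (adjusted *P* = 0.013, edgeR), and was not called when any 1 of the 6 libraries was left out (0.081 to 0.22). AT1G21020, with 4 differing bases, had 86.2 to 87.0% of it. AT1G21020 had 277, 326, and 315 counts in *suvh4/5/6 ldl2*, against 28, 36, and 24 in *suvh4/5/6*, and did not pass the test (log2 fold change 3.49, adjusted *P* = 0.076, edgeR). The data thus show that mRNA of this element rose, and not which of its copies was the source. With 1 row standing for the 5 copies, a setting chosen after seeing the data, 6 genes were called, 5 of them higher.

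**Figure D1:**
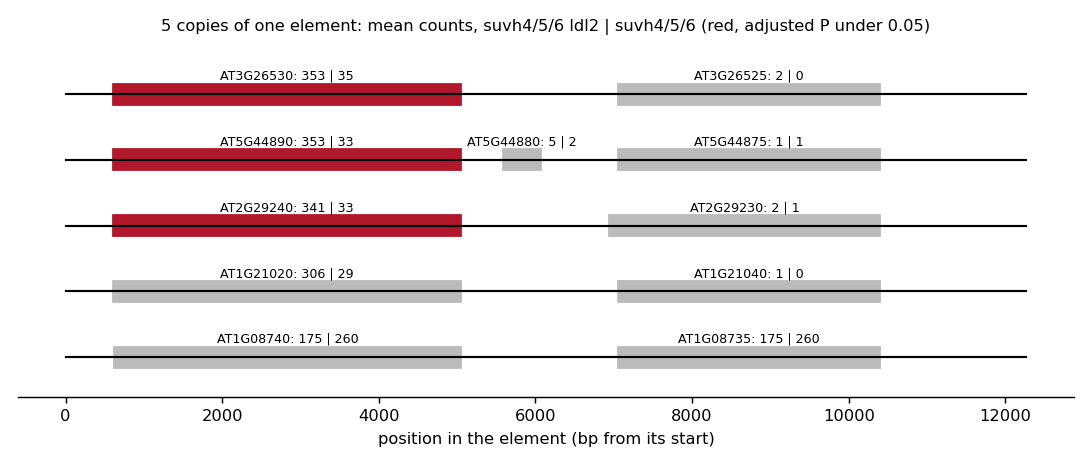
Map of the 12268-bp element in its 5 copies, with positions in bp from the start of the element on the horizontal axis and boxes for the genes of the table (red, adjusted *P* under 0.05). Numbers are mean counts over 3 libraries in *suvh4/5/6 ldl2* | *suvh4/5/6*, and in the upper 4 copies the Ulp1-like gene carries nearly all of the counts.

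The other genes in the element had few counts. The second gene of each copy, on the opposite strand, had at most 4 counts in any library of either mutant genotype in the copies of AT3G26530, AT5G44890, AT2G29240, and AT1G21020. Among them AT3G26525 had 1, 1, and 3 counts in *suvh4/5/6 ldl2* and none in *suvh4/5/6*, and AT5G44880, a further gene in the AT5G44890 copy, had 1, 6, and 7 in *suvh4/5/6 ldl2* and 1, 5, and 1 in *suvh4/5/6*. Whether these genes changed was not detectable at such counts. In the copy of AT1G08740 both rows had counts of another kind. AT1G08740 is counted on its antisense strand, with 158, 132, and 236 counts in *suvh4/5/6 ldl2* and 234, 251, and 295 in *suvh4/5/6*, and the next row AT1G08735 had 157, 132, and 235 counts in *suvh4/5/6 ldl2*. Such runs of neighbouring rows with counts equal within 5% made up 9.68% of the table, and no called gene was in one.

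In the second family, AT4G06628 had 118, 168, and 134 counts in *suvh4/5/6 ldl2*, against 15, 17, and 8 in *suvh4/5/6*, and none in WT (log2 fold change 3.51 ± 0.50, SE, adjusted *P* = 0.013, edgeR). Leaving out any 1 of the 6 libraries ended this call (adjusted *P* from 0.081 to 0.26, edgeR). AT4G06620, 99.4% identical to AT1G35647 over 1549 bp, had 74, 94, and 88 counts in *suvh4/5/6 ldl2* and 14, 9, and 14 in *suvh4/5/6* without passing the test (2.87, adjusted *P* = 0.44, edgeR). The groups did not overlap for either gene. More distant relatives did not separate the genotypes: AT4G07850, 91.2% identical, had 161, 145, and 223 counts in *suvh4/5/6 ldl2* and 117, 277, and 51 in *suvh4/5/6*.

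AT1G44880 had 314, 274, and 268 counts in *suvh4/5/6 ldl2*, against 19, 20, and 34 in *suvh4/5/6*, and none in WT (log2 fold change 3.63 ± 0.53, SE, adjusted *P* = 0.013, edgeR). It was not called without *suvh4/5/6 ldl2* replicate 1, *suvh4/5/6* replicate 1, or *suvh4/5/6* replicate 2, with adjusted *P* of 0.072, 0.19, and 0.18 in that order (edgeR). It is the only called gene that is also on the list of LDL2-regulated TE genes, which the study selected by lower mCHG in the F1 plants with *ldl2*, not on these libraries. AT4G03970, a relative of AT1G44880, had a log2 fold change of 2.95 without passing the test (adjusted *P* = 1, edgeR).

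**Figure D2:**
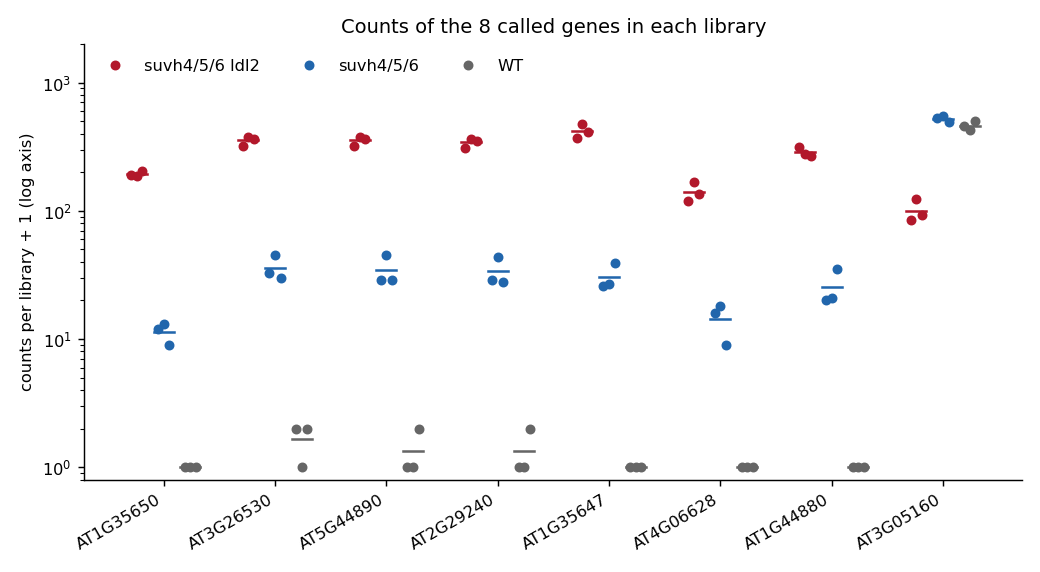
Counts per library, plus 1, on a log axis for the 8 called genes in *suvh4/5/6 ldl2* (red), *suvh4/5/6* (blue), and WT (gray), with short bars for the means of 3 libraries. The TE genes have 118 to 475 counts in *suvh4/5/6 ldl2*, against 8 to 44 in *suvh4/5/6*, whereas AT3G05160 has 84 to 122 in *suvh4/5/6 ldl2* and 494 to 546 in *suvh4/5/6*.

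The called TE genes lay in different chromosomal surroundings. In the 500-kb window centred on AT4G06628, 93.1% of the TE and protein-coding genes were TE genes, and the share was 39.1% around AT1G35650 and AT1G35647 and 24.3% around AT1G44880. It was 7.56% around AT5G44890, 5.59% around AT3G26530, and 3.62% around AT2G29240. The share in the genome was 12.5%. The windows of the called genes in intact copies were thus below it, and those of the other called TE genes above it. Since the counts do not show which intact copy was the source, these windows show where copies lie. They are not separate places where transcription was seen to rise. The surroundings of the AT1G21020 and AT1G08740 copies were not measured.

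AT3G05160 (chromosome 3, 1453106 to 1457150) was the gene with the smallest *P* value. It had 84, 122, and 91 counts in *suvh4/5/6 ldl2*, against 528, 546, and 494 in *suvh4/5/6*, and 455, 424, and 505 in WT. The *suvh4/5/6 ldl2* libraries were below all others, and the counts of *suvh4/5/6* and WT overlapped (log2 fold change −2.29 ± 0.17, SE, adjusted *P* = 7.6e-08, edgeR). The gene fell with *ldl2* in the other backgrounds too, with log2 fold changes of −2.45 in *cmt2/3*, −2.34 in sxc, and −2.60 in cxs, which come from other libraries. It lies 3.02 Mb from *LDL2* on the same chromosome, so the *ldl2* allele and any linked difference in sequence cannot be told apart for it. Among the 973 genes between AT3G05160 and *LDL2*, no gene was called (edgeR), and 2.47% had an unadjusted *P* under 0.05, against 1.79% of all genes. In this stretch 7 genes were higher and 17 lower at this unadjusted *P*, whereas over all 33602 genes 333 were higher (0.991%) and 267 lower (0.795%).

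The rows beside AT3G05160 encode related transporters. AT3G05165 had 650, 632, and 686 counts in *suvh4/5/6 ldl2* and 759, 670, and 763 in *suvh4/5/6*, with a log2 fold change of −0.06. AT3G05155, on the other side and on the opposite strand, had 4, 6, and 7 counts in *suvh4/5/6 ldl2* and 0, 0, and 1 in *suvh4/5/6*. It did not pass the test (log2 fold change 3.70, adjusted *P* = 1, edgeR). Its counts were also higher with *ldl2* in *cmt2/3*, at 8, 3, and 8, against 2, 1, and 2. They were 3, 8, and 7, against 1, 1, and 1, in sxc, and 6, 15, and 12, against 1, 1, and 1, in cxs. AT3G05155 was not called in any of these backgrounds (edgeR), and its counts were few.

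The share of all counts on TE genes did not separate the genotypes. TE genes took 1.001, 1.083, and 1.056% of the counts in *suvh4/5/6 ldl2*, against 1.073, 1.018, and 1.002% in *suvh4/5/6*, and 0.235, 0.278, and 0.400% in WT. The libraries of the mutant genotypes overlapped (difference 0.016 percentage points, *P* = 0.8, two-sided exact permutation test, for which 3 libraries against 3 cannot give less than 0.1). The most abundant TE gene, AT3G46487, had 3833, 3525, and 3515 counts in *suvh4/5/6 ldl2*, against 4223, 4035, and 3534 in *suvh4/5/6*, and 1, 1, and 10 in WT (log2 fold change −0.01 ± 0.38, SE). AT3G44215 had 3297, 3155, and 2916 counts in *suvh4/5/6 ldl2*, against 3156, 3219, and 2971 in *suvh4/5/6* (0.11 ± 0.22, SE). Both, near 0 in WT, overlapped between the mutant genotypes. Other abundant TE genes were lower in all *suvh4/5/6 ldl2* libraries without passing the test. AT2G34130 had 1002, 694, and 1013 counts in *suvh4/5/6 ldl2*, against 1881, 2152, and 1914 in *suvh4/5/6* (−1.02 ± 0.50, SE, adjusted *P* = 1, edgeR). AT3G28153 had 659, 750, and 644 counts in *suvh4/5/6 ldl2*, against 1482, 1159, and 1072 in *suvh4/5/6* (−0.74 ± 0.69, SE, adjusted *P* = 1, edgeR).

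Below the threshold of the adjusted *P*, TE genes leaned upward. Among them, 73 had an unadjusted *P* under 0.05 and were higher (1.87%), and 17 were lower (0.436%), against 0.991% higher and 0.795% lower over all genes. In protein-coding genes the counts were 246 higher (0.897%) and 228 lower (0.832%). On the annotated strand 66 of 2136 TE genes were higher and 15 lower, and on the antisense strand 7 of 1767 were higher and 2 lower. Of the 700 TE genes with a mean of at least 1 CPM over the 6 libraries, 125 (17.9%) had all *suvh4/5/6 ldl2* libraries above all *suvh4/5/6* libraries and 38 (5.43%) had them below, beside 5.39% and 4.54% of all 20380 such genes. The median log2 fold change of these TE genes was 0.061, against 0.001 for all such genes, both near 0. Split by strand, 19.3% of 571 TE genes on the annotated strand were above and 5.95% below, and 11.6% of 129 on the antisense strand were above and 3.10% below. A difference between the strands was not tested. Without the rows that lie in runs of equal counts, 121 of 615 TE genes were higher in all *suvh4/5/6 ldl2* libraries and 35 lower, with a median of 0.099.

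**Figure D3:**
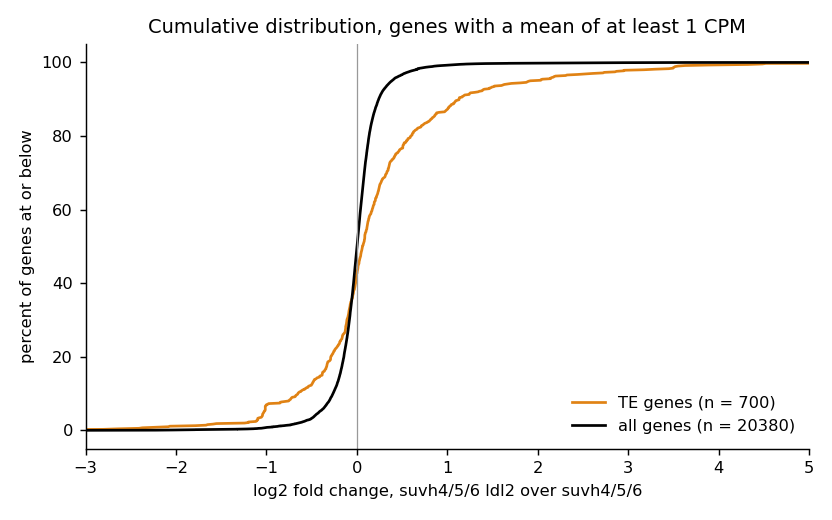
Cumulative percent of genes (vertical axis) at or below each log2 fold change of *suvh4/5/6 ldl2* over *suvh4/5/6* (horizontal axis), for the 700 TE genes and all 20380 genes with a mean of at least 1 CPM. Both curves cross the middle near 0, and the TE curve spreads wider on both sides. Its step near −1 is made of 26 TE rows of a run of equal counts on chromosome 3.

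The TE genes next in rank were chosen after their values were seen. AT4G06698 had 595, 630, and 959 counts in *suvh4/5/6 ldl2*, against 289, 153, and 89 in *suvh4/5/6* (log2 fold change 2.18, adjusted *P* = 0.086, edgeR), and passed with the replicate number as a block (2.15, adjusted *P* = 0.039, edgeR). AT3G43530 had 124, 522, and 176 counts in *suvh4/5/6 ldl2*, against 42, 26, and 22 in *suvh4/5/6*, with 1 library far above the rest. AT2G06220 had 109, 157, and 138 counts in *suvh4/5/6 ldl2*, against 30, 33, and 25 in *suvh4/5/6* (log2 fold change 2.31, adjusted *P* = 0.29, edgeR). AT5G30450 had 790, 432, and 26 counts in *suvh4/5/6 ldl2*, against 3, 4, and 0 in *suvh4/5/6* (log2 fold change 7.51, adjusted *P* = 0.29, edgeR). These genes differ in how closely their *suvh4/5/6 ldl2* libraries agree, with replicate 3 far below replicate 1 in AT5G30450.

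Some TE genes had lower counts with *ldl2*, and none passed the test. AT2G06590 had 125, 458, and 278 counts in *suvh4/5/6 ldl2*, against 912, 1230, and 1047 in *suvh4/5/6*. AT2G06670 had 138, 379, and 252 counts in *suvh4/5/6 ldl2*, against 773, 961, and 858 in *suvh4/5/6*. The genotypes did not overlap for either gene (log2 fold changes −1.79 and −1.65, adjusted *P* = 1 for each, edgeR). For AT1G42727 the difference rested on 1 library, with 14, 10, and 9 counts in *suvh4/5/6 ldl2*, against 453, 18, and 4 in *suvh4/5/6*.

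**Figure D4:**
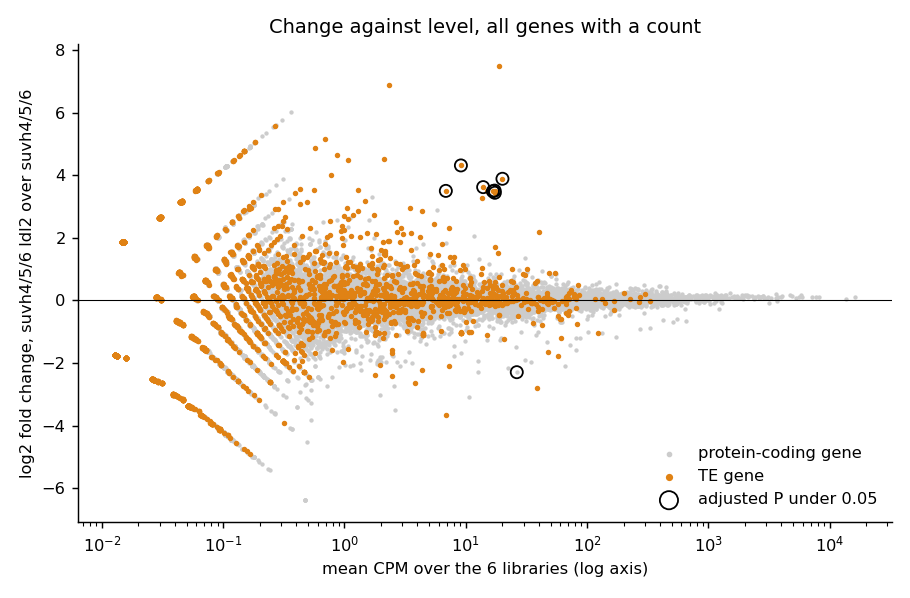
Log2 fold change of *suvh4/5/6 ldl2* over *suvh4/5/6* (vertical axis) against the mean CPM over the 6 libraries on a log axis, with protein-coding genes in gray and TE genes in orange. Circles mark the 8 called genes, of which 7 TE genes lie between 3.45 and 4.32 and AT3G05160 at −2.29.

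Of the LDL2-regulated TE genes, 113 had a mean of at least 1 CPM and 81 less. Among them 1 was called (0.515%), 12 had an unadjusted *P* under 0.05 and were higher, and 2 were lower. As shares these were 6.19% higher and 1.03% lower, beside 1.87% and 0.436% of all TE genes and 0.991% and 0.795% of all genes, and the share called was 0.179% of all TE genes and 0.0238% of all genes. These shares do not match the sets by level, since most TE genes had a mean under 1 CPM. At 1 CPM or more, 12 of the 113 list genes were higher at this unadjusted *P* and 1 was lower. Of all 700 TE genes at this level, 59 were higher and 11 lower. The list had a median of 0.041 on the log2 scale, beside 0.000 for all genes. AT3G29648 of this list had 469, 548, and 399 counts in *suvh4/5/6 ldl2*, against 264, 295, and 205 in *suvh4/5/6*, without overlap (log2 fold change 1.01, adjusted *P* = 1, edgeR). AT1G42500 had 65, 102, and 159 counts in *suvh4/5/6 ldl2*, against 23, 34, and 42 in *suvh4/5/6* (1.81, adjusted *P* = 1, edgeR). AT1G52850, with the largest change of the list, had 2, 0, and 148 counts in *suvh4/5/6 ldl2*, against 0, 1, and 0 in *suvh4/5/6*, so that its change rested on 1 library. Among the 113 genes, 22.1% had all *suvh4/5/6 ldl2* libraries above all *suvh4/5/6* libraries and 6.19% below, beside 17.9% and 5.43% of all TE genes and 5.39% and 4.54% of all genes at this level. Of the 14 ASHH3-regulated TE genes, named for the methyltransferase that adds H3K36me3, none was called and none had an unadjusted *P* under 0.05.

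No gene of the other lists was called (edgeR). Among the 722 genes that gain H3K9me2 and lose H3K4me1 in *ibm1*, the mutant of a histone H3K9 demethylase, 10 had an unadjusted *P* under 0.05 and were higher (1.39%) and 14 were lower (1.94%), beside 0.991% and 0.795% of all genes, with a median of −0.02. None of 11 genes of DNA methylation and demethylation and none of 14 genes of RNA-directed DNA methylation had an unadjusted *P* under 0.05. *IBM1* itself had 167, 209, and 149 counts in *suvh4/5/6 ldl2*, 149, 203, and 112 in *suvh4/5/6*, and 305, 324, and 385 in WT. *SDC*, an F-box gene silenced by DNA methylation of its promoter, had 121, 195, and 142 counts in *suvh4/5/6 ldl2*, 72, 130, and 62 in *suvh4/5/6*, and 1, 3, and 6 in WT (log2 fold change 0.92, adjusted *P* = 1, edgeR). *SDC* thus had counts in both mutant genotypes, and on the CPM scale its *suvh4/5/6 ldl2* libraries (10.9 to 17.3 CPM) were all above the *suvh4/5/6* libraries (5.79 to 10.1 CPM).

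In the flowering list, *FLC*, the repressor of flowering that vernalization silences, had 35, 24, and 35 counts in *suvh4/5/6 ldl2*, against 17, 3, and 5 in *suvh4/5/6*, and 9, 8, and 8 in WT. Its libraries did not overlap but it did not pass the test (log2 fold change 2.01, adjusted *P* = 1, edgeR), and its counts were few. The largest change of this list was that of AT1G69120 (log2 fold change −2.06), at 0.152 CPM in *suvh4/5/6 ldl2* and 0.670 CPM in *suvh4/5/6*. In the glucosinolate list, *CYP79F1*, which starts the synthesis of aliphatic glucosinolates from methionine derivatives, had 4927, 5541, and 4646 counts in *suvh4/5/6 ldl2*, against 4497, 4092, and 3362 in *suvh4/5/6*. *CYP79F1* was higher by 0.45 on the log2 scale (adjusted *P* = 1, edgeR). In this list 3 of the 10 genes had an unadjusted *P* under 0.05, all higher, beside 0.991% of all genes. The list is small and was chosen with earlier results of these data known. The 8 genes of the *RPP5* cluster and *RPP7*, which encode immune receptors, had a median of 0.19, and none had an unadjusted *P* under 0.05. In 4 of the 8 (50%) all *suvh4/5/6 ldl2* libraries were above all *suvh4/5/6* libraries, and in none were they below. Over all genes with a mean of at least 1 CPM these shares were 5.39% and 4.54%. This list is small as well. In the jasmonate list the largest change was that of *THI2.1*, a thionin gene induced by jasmonate, with 2, 10, and 2 counts in *suvh4/5/6 ldl2* and 40, 89, and 4 in *suvh4/5/6*. In the salicylic acid list it was that of *NIMIN1*, whose product binds the receptor NPR1, with 27, 71, and 43 counts in *suvh4/5/6 ldl2* and 25, 32, and 10 in *suvh4/5/6*. The libraries overlapped for both genes.

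The *ldl2* effect was then set beside that in *cmt2/3*, where the *SUVH* genes are intact but H3K9me2 and non-CG methylation of TEs are lost as well. *ldl2* called 19 genes higher (0.0565%) and 2 lower (0.00595%) in *cmt2/3*, and 2 of the 8 genes called in *suvh4/5/6* were among them in the same direction, AT3G05160 and AT1G44880. AT1G44880 had a log2 fold change of 4.58 in *cmt2/3*, with 157, 46, and 44 counts in *cmt2/3 ldl2*, against 5, 3, and 2 in *cmt2/3*. For the other called TE genes the counts in *cmt2/3* were low. AT1G35650 had 2, 3, and 3 counts in *cmt2/3 ldl2* and 1, 2, and 0 in *cmt2/3*, and AT3G26530 had 14, 7, and 17 in *cmt2/3 ldl2* and 0, 6, and 3 in *cmt2/3*. The difference between the backgrounds did not pass the test for any of the 8 genes (edgeR), with unadjusted *P* of 0.016 for AT1G35650 and 0.019 for AT4G06628.

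The difference itself was called for 4 genes (0.0119%), all with a smaller effect in *suvh4/5/6* than in *cmt2/3*. This count and its direction depended on the fit. A fit of the 4 compared genotypes alone called 233 genes, 169 of them with a more positive log2 fold change in *suvh4/5/6*. DESeq2 called 48, with 35 of them so. A more positive value in *suvh4/5/6* can also come from a fall with *ldl2* in *cmt2/3*. The 4 genes were called in the fit of the compared genotypes too, and DESeq2 called AT2G01840 and AT3G01345 and gave no adjusted *P* for the other 2. AT2G01840, a TE gene on chromosome 2, had 1112, 897, and 1018 counts in *suvh4/5/6 ldl2*, against 1033, 1027, and 861 in *suvh4/5/6*. It had 692, 484, and 521 counts in *cmt2/3 ldl2*, against 44, 41, and 48 in *cmt2/3*. Its *ldl2* effect on the log2 scale was thus 0.16 in *suvh4/5/6* and 3.71 in *cmt2/3* (difference −3.55, adjusted *P* = 8.2e-07, edgeR).

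AT3G01345, a protein-coding gene, had 2301, 2207, and 2201 counts in *suvh4/5/6 ldl2*, against 2996, 2884, and 2129 in *suvh4/5/6*. It had 2293, 1921, and 1957 counts in *cmt2/3 ldl2*, against 228, 311, and 208 in *cmt2/3* (difference −3.23, adjusted *P* = 1.5e-04, edgeR). Both genes were as abundant in *suvh4/5/6* without *ldl2* as with it. AT3G09170 and AT1G34610, TE genes that are 99.9% identical and not separate observations, had differences of −4.53 and −4.37 (adjusted *P* = 0.0094 for each, edgeR). Without *cmt2/3* replicate 1 neither was called (0.12 for each), and without *cmt2/3* replicate 2 AT3G09170 was not (0.074). AT3G09170 had 141, 143, and 115 counts in *suvh4/5/6 ldl2* and 170, 127, and 108 in *suvh4/5/6*, whereas it had 81, 39, and 80 in *cmt2/3 ldl2* and 2, 2, and 4 in *cmt2/3*.

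**Figure D5:**
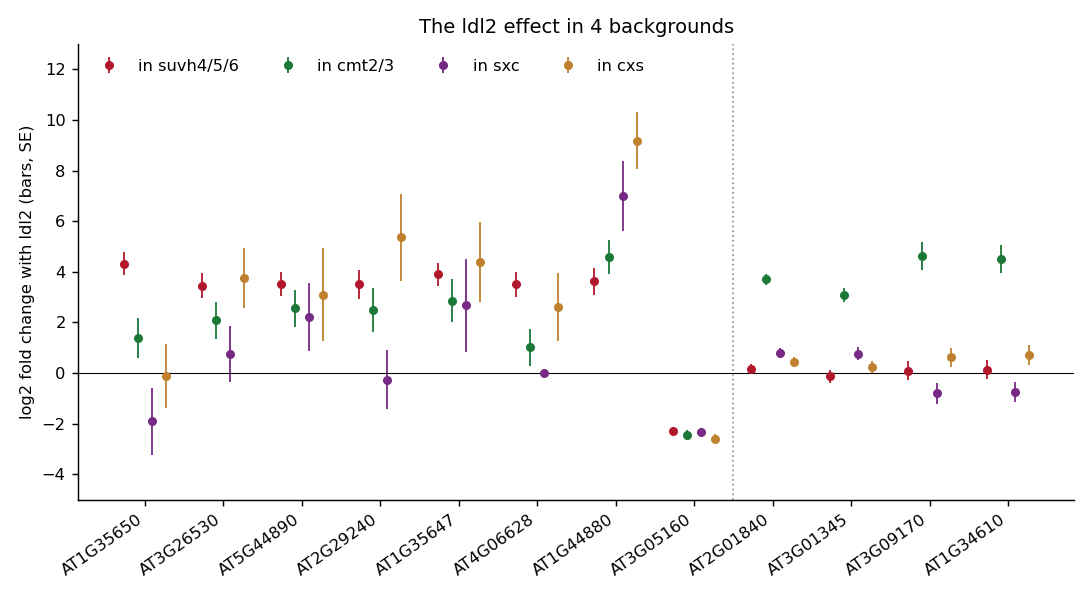
Log2 fold change with *ldl2* (points, with SE bars) in *suvh4/5/6*, *cmt2/3*, sxc, and cxs for the 8 genes called in *suvh4/5/6* (left of the dotted line) and the 4 genes whose effect differed between *suvh4/5/6* and *cmt2/3* (right of it). AT3G05160 lies between −2.60 and −2.29 in all backgrounds, and the 4 genes on the right lie between −0.14 and 0.16 in *suvh4/5/6* and between 3.09 and 4.62 in *cmt2/3*.

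In the F1 plants, *ldl2* called 40 genes higher (0.119%) and 3 lower (0.00893%) in sxc, and 19 higher (0.0565%) and 15 lower (0.0446%) in cxs. AT3G05160 was called in both, and AT1G44880 in cxs, with 28, 50, and 160 counts in cxs *ldl2*, against none in cxs. Replicate 2 of cxs *ldl2* stood apart, with a TMM scaling factor of 1.307, against 0.933 and 1.085 in replicates 1 and 3. In it 2014 TE genes were detected, against 1120 and 1516. What this library does to the cxs calls was not tested. The fitted fold changes of genes with few or no counts, as most of the called TE genes had in the F1 plants, depend on the prior count and are no measure of size. The 50 TE genes called higher with *ldl2* in *cmt2/3*, sxc, or cxs included 1 gene called in *suvh4/5/6*, and 12 of them had an unadjusted *P* under 0.05 there, all higher. Among all TE genes, 0.179% were called higher in *suvh4/5/6* and 1.87% were higher at this unadjusted *P*, and among all genes 0.0208% and 0.991%. The 50 genes were not matched to these sets by level. Of the 700 TE genes with a mean of at least 1 CPM over the 6 libraries, 59 were higher at this unadjusted *P*. The median log2 fold change of the 50 TE genes was 0.42 in *suvh4/5/6*. It was 1.41 in *cmt2/3*, 3.81 in sxc, and 1.77 in cxs, where these genes had been chosen.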

How the data were processed

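The mRNA-seq of 27 libraries from 9 genotypes, 3 biological replicates each, was analyzed, and the comparison used *suvh4/5/6 ldl2* and *suvh4/5/6*. The authors prepared libraries from total RNA (KAPA mRNA HyperPrep), sequenced paired ends, and mapped the reads, clipped at the 3′ end, to TAIR10 with STAR, counting reads per gene. The deposited values are counts per gene without normalization, each gene being counted on a single strand, and 7283 of the 33602 rows are on the strand opposite to the annotation. Organelle genes are listed at 0 in the 6 libraries.

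Counts were scaled by TMM and fitted in edgeR 4.0.16 (R 4.3.3) with a mean for each of the 9 genotypes and no filter, and tested by the quasi-likelihood F test with adjustment over all genes at 0.05. The difference of the *ldl2* effect was tested in the same fit. Library shares were compared by exact permutation tests. Replicates of a genotype differed beyond sampling noise (chi-square over its degrees of freedom, at least 4.77), so each was counted. Same-numbered libraries of the compared genotypes deviated together (r = 0.127, 0.558, and 0.405 over 20380 genes), and the number was therefore tried as a block. Counts were simulated for this comparison over 33602 genes, with 100 genes changed by 2 on the log2 scale and 100 by 3. All changed genes had at least 1 CPM in *suvh4/5/6*. Of them, 84.0% and 97.0% were recovered in that order, with 6 false calls among 187. Recovery was not simulated for genes under 1 CPM, nor with as few changed genes as the 8 called here. Of the 3903 TE genes, 700 had a mean of at least 1 CPM over the 6 libraries.

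Copies were compared with BLAST 2.17.0 and MAFFT 7.526 on the TAIR10.1 reference, and gene positions are those of the table, counted from 1. All 3903 TE genes and the 26719 nuclear protein-coding genes found by identifier overlapped their TAIR10.1 annotation, and 3899 of the TE genes shared a start or an end with it. Genes named by rule were *LDL2*, *SUVH4*, *SUVH5*, *SUVH6*, every called gene, and called list members or, where a list had none, the gene with the largest change. For some lists the gene with the largest change is not printed. *FLC*, the genes next in rank, relatives, neighbours, and abundant TE genes were named after their values were seen. The members and lists were chosen with earlier results of these data known. Alternatives were RLE scaling, filterByExpr, a fit of the compared genotypes alone, the replicate block, the likelihood ratio test, DESeq2 1.42.0, bias-adjusted quasi-dispersions, and leaving out each library. A fit without rows in runs of equal counts, and one with 1 row for the element copies, were chosen after seeing the data.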

Additional observations from a re-analysis of the deposited data

Results flagged for a closer look

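In 4 genes the effect of *ldl2* differed between *suvh4/5/6* and *cmt2/3* by a test of the difference itself. The difference of the log2 fold changes, *suvh4/5/6* minus *cmt2/3*, was −3.55 for AT2G01840, −3.23 for AT3G01345, −4.53 for AT3G09170, and −4.37 for AT1G34610. AT3G09170 and AT1G34610 are near-identical, so that 3 separate sequences were found. The 4 genes were the calls of the fit of all 9 genotypes, and the number of calls changed strongly with the fit, as given below.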

How the results depend on the processing

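The 8 genes called in *suvh4/5/6 ldl2* against *suvh4/5/6* were called under every alternative that kept all libraries and held their row. The number of calls was 13 with the compared genotypes alone and with the likelihood ratio test (12 TE genes each), and 21 (18 TE genes, 3 protein-coding genes) with bias-adjusted quasi-dispersions. LDL2-regulated TE genes had 2 calls with the compared genotypes alone. The replicate block gave 9 calls, with AT4G06698 added, and changed no other call. RLE scaling and filterByExpr gave 8, and DESeq2 gave 11. Without rows in runs of equal counts, 9 genes were called.

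Leaving out 1 library gave 3 to 6 calls (2 to 5 TE genes, 1 protein-coding gene, and 0 to 1 LDL2-regulated TE genes, with 0 without *suvh4/5/6 ldl2* replicate 1 or *suvh4/5/6* replicate 1 or 2). The lowest, 3, was without *suvh4/5/6* replicate 1; 5 genes were called without *suvh4/5/6* replicate 2 or 3 or without *suvh4/5/6 ldl2* replicate 1. AT3G05160, AT1G35650, and AT1G35647 were called each time, and AT2G29240 and AT4G06628 never (adjusted *P* from 0.081 to 0.22 and from 0.081 to 0.26, edgeR), with log2 fold changes of at least 3.31.

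The difference between backgrounds had 4 calls, but 233 (169 higher, 64 lower) with the 4 compared genotypes alone, 21 with the likelihood ratio test, and 48 with DESeq2, which called 2 of the 4 and gave no adjusted *P* for the others. Leaving out 1 library gave 2 to 6, with 2 without *cmt2/3* replicate 1. The cause was not tested. The difference in the TE share ranged from −0.0024 to 0.038 percentage points when 1 library was left out, reversing without *suvh4/5/6 ldl2* replicate 2. *SUVH5* (AT2G35160), at 0.10 with all libraries, ranged from −0.29 to 0.60, reversing without *suvh4/5/6 ldl2* replicate 2 (−0.16) and without *suvh4/5/6* replicate 2 (−0.29). The called TE genes had at most 475 counts in a library, and for TE genes with few counts a change may not be detectable at this depth.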

Other observations

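Outside TE and protein-coding genes, no gene was called in the comparison of *suvh4/5/6 ldl2* with *suvh4/5/6* (edgeR). Of 924 pseudogenes, 10 had an unadjusted *P* under 0.05 and were higher (1.08%) and 7 were lower (0.758%). Over all genes the shares were 0.991% higher and 0.795% lower. Of 177 miRNA genes, 1 was higher (0.565%) and 2 were lower (1.13%). Of 394 other RNA genes, 2 were higher (0.508%) and 6 lower (1.52%). Among tRNA genes, 1 of 689 was higher (0.145%) and 7 were lower (1.02%), and 219 of the 689 rows were in runs of equal counts.

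Ribosomal RNA took 0.892 to 1.32% of the counts in *suvh4/5/6 ldl2*, against 0.892 to 2.91% in *suvh4/5/6* and 1.99 to 4.11% in WT.

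AT1G76720, annotated as a translation initiation factor of the eIF-2 family, had 272, 235, and 232 counts in *suvh4/5/6 ldl2*, against 202, 134, and 147 in *suvh4/5/6* (log2 fold change 0.72, adjusted *P* = 0.81, edgeR), and its log2 fold changes with *ldl2* were 0.60 in *cmt2/3*, 0.63 in sxc, and 0.51 in cxs. It was named after its values were seen.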
